A study of Mus musculus with 14 samples.

Results

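The 33 genes described here are the p53 tumour suppressor gene Trp53, its negative regulators Mdm2 and Mdm4, and 30 genes that p53 is known to switch on, out of 23646 gene symbols used in one set of libraries and 54540 in the other. They were chosen by name as a list of p53 pathway genes, at a time when the high level of Cdkn1a in the first DMSO library of the OB set was already known, so that level is a description and not a finding. RNA was sequenced from BFU-E, the burst-forming erythroid progenitors that stand early in the red cell lineage, of C57BL/6 mouse fetal liver, cultured in a serum-free medium. The 4 groups of 3 libraries were compound OB at 100 µM, the DMSO solvent controls of compound OB, compound PD at 3 nM, and the separate DMSO controls of compound PD. No group carries a gene deletion or transgene, the duration of culture is not given in the sources used here, and nothing states that replicates came from separate cultures or animals, so p-values measure the spread between these libraries, which may be technical. A CREB chromatin sample with its input, also in the series, was not used here.

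p53 is a transcription factor that cells hold at a low level, because the ubiquitin ligase MDM2 marks it for destruction and MDM4 blocks its activity. DNA damage, oncogene activity or faulty ribosome assembly frees p53 from this control, and it then turns on genes that stop the cell cycle, trigger death or repair DNA, and also turns on Mdm2, which closes a feedback loop. Erythroid progenitors are known to be sensitive to this pathway, since p53 activation after ribosomal protein loss underlies much of the anaemia in mouse models of Diamond-Blackfan anaemia.

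p53 binds DNA at 10-base elements, usually 2 of them side by side. The RefSeq promoter windows (build GRCm38.p6, to which mm10 corresponds) hold 250 bases before and 50 bases after an annotated transcript start, and 25 of the 33 genes had at least 1 window (33 windows in all). An exact match to the p53 element consensus was found in 12 of the 33 windows (36.4%), against 8.36% of all 32851 windows. The 12 windows belong to 11 genes, namely Aen, Bax, Ccng1, Cdkn1a, Ckap2, Ei24, Gadd45a, Mdm2, Polk, Sesn1 and Trp53. The consensus reads the same on both strands. A tandem was 2 elements with at most 2 mismatches in all and at most 13 bases between them. Mismatches at the fixed C and G of an element were not allowed. Such a tandem was found in 6 of the 33 windows (18.2%), against 4.09% of all windows, in Bax, Ccng1, Cdkn1a, Ckap2, Gadd45a and Sesn1. Because the series also concerns CREB, the core TGACG of the cyclic AMP response element was searched on both strands too, and 10 of the 33 windows (30.3%) held it, against 20.8% of all windows. A match is a description of the letters and does not show binding, and known p53 sites of several members lie outside these windows.

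The windows of 5 of the genes named in the results below are shown 5′ to 3′ on the strand of the gene. Capitals mark p53 elements in the first 4, as exact matches or as the closest tandem, and TGACG in Plk3, whose window held no exact p53 element. Cdkn1a has a second annotated window, chr17:29093519-29093818, with no exact element.
Cdkn1a, chr17:29090729-29091028, plus strand: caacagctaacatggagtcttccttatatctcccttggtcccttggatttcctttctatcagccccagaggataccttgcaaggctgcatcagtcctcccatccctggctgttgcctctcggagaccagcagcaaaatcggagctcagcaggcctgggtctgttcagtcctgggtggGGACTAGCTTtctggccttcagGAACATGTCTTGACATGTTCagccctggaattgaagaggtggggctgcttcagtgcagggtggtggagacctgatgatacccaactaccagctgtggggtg
Ccng1, chr11:40755237-40755536, minus strand: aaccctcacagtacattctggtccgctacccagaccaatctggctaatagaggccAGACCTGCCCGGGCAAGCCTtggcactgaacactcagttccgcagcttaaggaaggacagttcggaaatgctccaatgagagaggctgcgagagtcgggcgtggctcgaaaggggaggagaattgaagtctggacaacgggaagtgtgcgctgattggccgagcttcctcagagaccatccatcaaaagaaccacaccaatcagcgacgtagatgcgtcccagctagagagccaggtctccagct
Mdm2, chr10:117710709-117711008, minus strand: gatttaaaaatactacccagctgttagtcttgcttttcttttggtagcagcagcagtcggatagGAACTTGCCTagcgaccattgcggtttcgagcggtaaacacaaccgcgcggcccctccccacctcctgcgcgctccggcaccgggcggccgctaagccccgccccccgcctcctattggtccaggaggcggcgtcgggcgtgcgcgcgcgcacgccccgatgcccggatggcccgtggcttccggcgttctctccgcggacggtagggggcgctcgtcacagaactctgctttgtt
Bax, chr7:45466849-45467148, minus strand: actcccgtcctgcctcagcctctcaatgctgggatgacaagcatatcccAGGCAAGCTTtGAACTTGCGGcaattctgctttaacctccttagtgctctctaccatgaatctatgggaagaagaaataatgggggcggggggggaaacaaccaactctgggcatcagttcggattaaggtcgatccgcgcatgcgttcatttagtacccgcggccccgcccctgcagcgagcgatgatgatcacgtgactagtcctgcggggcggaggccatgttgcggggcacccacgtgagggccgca
Plk3, chr4:117133914-117134213, minus strand: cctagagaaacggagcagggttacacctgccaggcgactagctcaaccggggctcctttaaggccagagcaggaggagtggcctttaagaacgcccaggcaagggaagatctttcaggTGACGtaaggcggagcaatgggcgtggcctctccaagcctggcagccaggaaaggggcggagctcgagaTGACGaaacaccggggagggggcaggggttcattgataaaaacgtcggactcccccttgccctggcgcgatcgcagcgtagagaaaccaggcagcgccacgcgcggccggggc
The tandem in Cdkn1a was 2 adjoining elements with 1 mismatch in all, and so was that in Ccng1, while the tandem in Bax had 2 mismatches and 1 base between its elements. Mdm2 had a single exact element in its window.

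Values are FPKM (fragments per kilobase of gene, scaled to the mapped fragments of the library), and fold changes are log2 differences, compound minus its own DMSO, on log2(FPKM + 1), which understates the change of low genes. The erythroid markers Kit, Gata1, Gata2, Klf1, Tfrc, Epor, Zfp36l2, Nr3c1 and Myb were present in all 12 libraries, with summed FPKM of 1136 to 1361 in the OB set and 901 to 1195 in the PD set. Hepatocyte markers summed to at most 6.44 FPKM in any library, with Ttr at 0 in every library. Neutrophil precursor markers summed to 146 to 585 FPKM in the OB set and to 11728 to 37640 FPKM in the PD set. Replicate 2 of the OB set's DMSO controls held 15735 FPKM of the ribosomal RNA precursor Rn45s and the small RNAs Rmrp and Rpph1 together, against 204 to 1027 in the other 5 libraries of that set. In bulk RNA, fewer cells of a type and less RNA per cell cannot be told apart.

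In the OB set, 24 of the 31 tested members were higher in both libraries numbered 1, the treated one and the control, than in the other replicates. Cdkn1a, which encodes the cyclin-dependent kinase inhibitor p21, had 227 FPKM in compound OB replicate 1 and 68.4 and 67.5 in replicates 2 and 3, against 321, 76.1 and 81.9 FPKM in DMSO replicates 1, 2 and 3. Phlda3, a p53-induced inhibitor of the survival kinase AKT, had 63.2, 17.7 and 17.7 FPKM with compound OB, against 88.9, 20.3 and 24.6 FPKM with DMSO. The library numbered 1 was the highest of its group for both genes, by a wider margin than any difference between the groups.

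On the log2 scale, replicate 1 exceeded the mean of replicates 2 and 3 by a median of 0.57 over the 31 members tested in compound OB and by 0.77 in DMSO, against medians of −0.03 and 0.05 over all 10103 genes tested. The 24 members above the other replicates in both libraries compare with 41.9% of all genes. Those at least 1 log2 unit above in both were 7 of 31, namely Bbc3, Cdkn1a, Dcxr, Gadd45a, Gdf15, Phlda3 and Plk2, against 0.99% of all genes. Cdkn1a, whose level in DMSO replicate 1 was known when the genes were chosen, is part of these counts and medians. All 11 tested apoptosis genes were above the other replicates in both of these libraries, with medians of 0.58 in compound OB replicate 1 and 0.89 in DMSO replicate 1. The medians in these libraries were 0.92 and 0.96 over the 8 arrest genes, of which Plk3 (−0.02 and 0.08) and Ckap2 (−0.13 and −0.05) were near 0. They were 0.86 and 1.32 over the 4 tested metabolic genes, and −0.18 and −0.00 over the 5 repair genes, of which Polk and Ercc5 were above in both. The difference between roles was not tested. Mdm4, the p53 inhibitor, was lower in these libraries, with log2 values of −0.75 in compound OB and −0.57 in DMSO, and Trp53 itself was higher, with 0.44 and 0.74.

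The same libraries held more transcript of other blood cells. Summed over 12 neutrophil precursor markers, they had 489 FPKM in compound OB replicate 1 and 166 and 181 in replicates 2 and 3, against 585, 148 and 146 FPKM in DMSO replicates 1, 2 and 3. Summed over 9 megakaryocyte markers the values were 1009, 603 and 642 FPKM with compound OB, against 1410, 493 and 580 FPKM with DMSO. No marker of either list was at 0 in all 6 libraries. The part of these cells in the levels of the p53 genes was not tested.

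**Figure D1:**
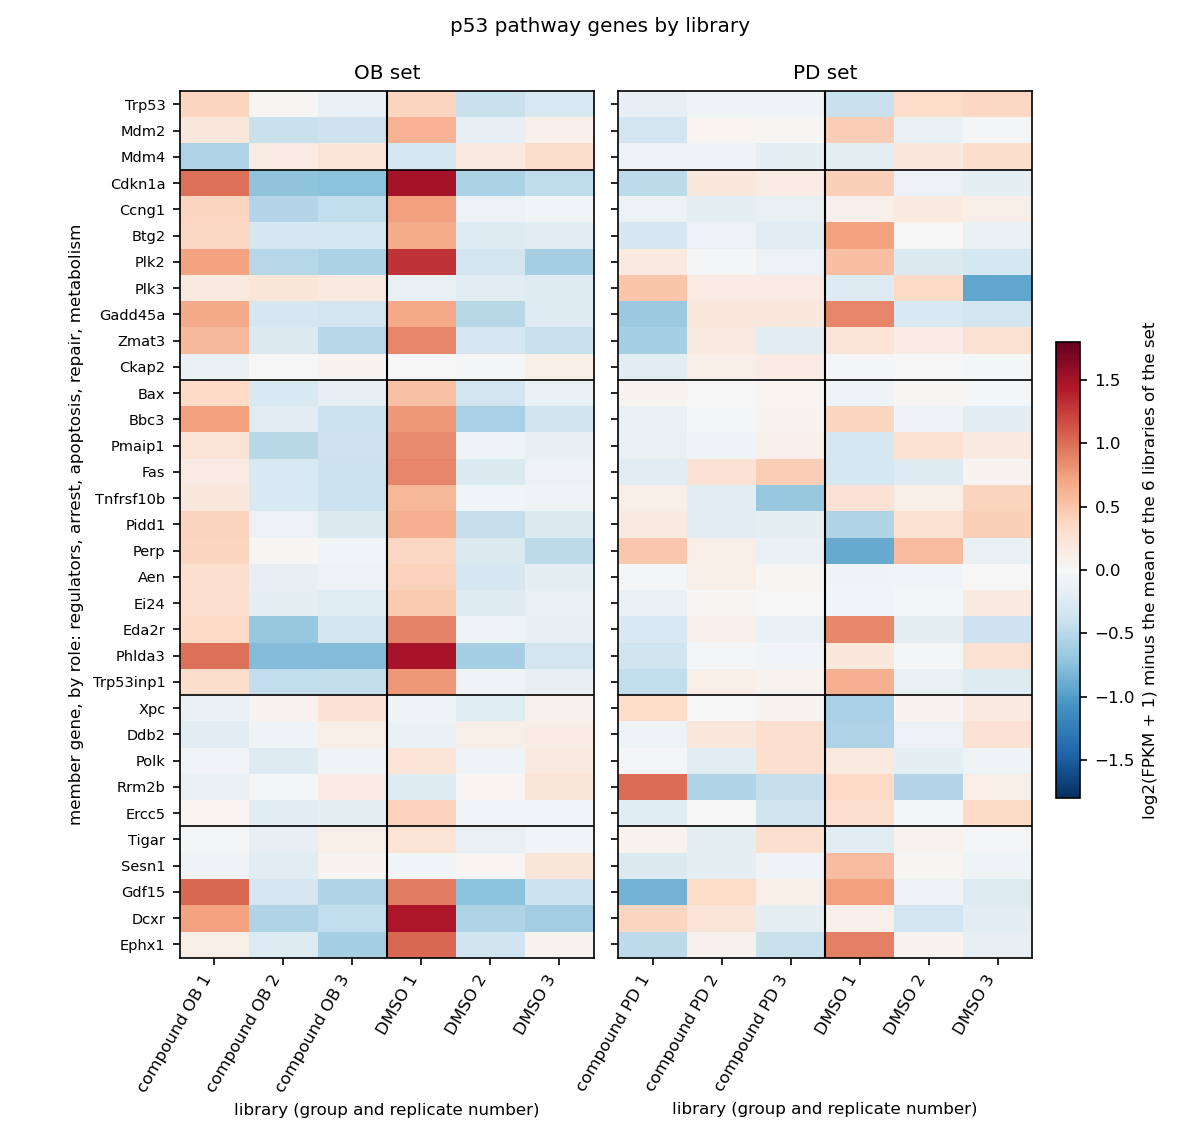
Each row is 1 of the 33 genes and each column 1 library, with compound libraries left of their DMSO controls in each set. Colour gives log2(FPKM + 1) minus the mean of the 6 libraries of the set, red above and blue below, and black lines part the roles. In the OB set the columns numbered 1 are red for most arrest and apoptosis genes in both groups, and in the PD set DMSO 1 is red for Gadd45a, Btg2, Eda2r, Trp53inp1, Gdf15 and Ephx1.

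In the PD set the libraries numbered 1 stood apart in opposite directions for part of the members. Gadd45a, a stress sensor that acts in arrest and repair, had 290, 525 and 526 FPKM with compound PD, against 848, 379 and 365 FPKM with DMSO. Cdkn1a had 222, 351 and 338 FPKM with compound PD, against 414, 285 and 271.5 FPKM with DMSO. For both genes replicate 1 was the lowest of the compound libraries and the highest of the DMSO libraries. That pattern held for 14 of the 33 members when replicate 1 was set against the mean of replicates 2 and 3, against 12.4% of 11887 genes, and the reverse held for 7 members, against 44.0% of genes. Over all genes DMSO replicate 1 of this set had a median of −0.29 against its own replicates 2 and 3, and over the members 0.03.

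**Figure D2:**
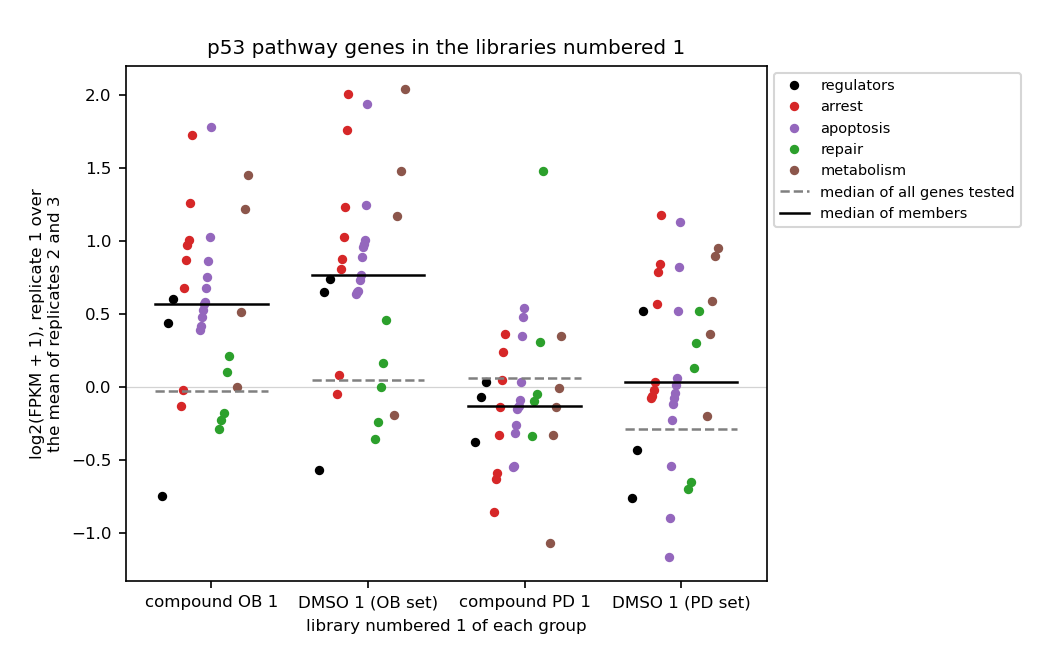
Points are members, coloured by role, for the library numbered 1 of each of the 4 groups. The vertical axis is log2(FPKM + 1) in that library minus the log2 of the mean of replicates 2 and 3 plus 1, and lines give the median of the members (solid) and of all genes tested (dashed). The members' medians lie at 0.57 and 0.77 in the OB set, above the dashed lines, and at −0.13 and 0.03 in the PD set.

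The first comparison asked which p53 genes differed between BFU-E given compound OB and their DMSO controls. No member passed the test. Within each replicate number 14 of the 31 tested members were lower with compound OB, against 16.7% of all genes. These came from every role. Perp, Plk3 and Trp53 were higher within each number, against 23.2% of all genes. Of the 33 genes, 31 had a mean of at least 1 FPKM and were tested, and Fas (0.31 to 2.13 FPKM over the 6 libraries) and Tigar, listed there under its older name 9630033F20Rik (0.32 to 0.74 FPKM), were not. limma called 0 of the 31 members at an adjusted p under 0.05, and 0.0% of all genes. At an unadjusted p under 0.05 there was 1 member, Plk3, and 3.68% of all genes. The fitted log2 was below 0 in 22 of 31 members, against 41.2% of all genes, with a median of −0.12 over the members and 0.03 over all genes. The median turned to 0.14, with 14 of 31 below 0, when DMSO replicate 1 was left out, and lay between −0.28 and −0.03 when any other single library was left out. Over all genes the median was 0.04 without DMSO replicate 1.

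Libraries of the same number deviated together in the OB set (r of 0.434 to 0.832 across genes). Replicates 2 and 3 of the 2 groups also did so across numbers (r of 0.327 and 0.413). The fit was therefore also made with the replicate number as a block. It called 7 of 10103 genes (0.0693%) and none of the 31 members, whose smallest adjusted p was 0.0856. At an unadjusted p under 0.05 it had 11 members, of which 10 were lower and 1 higher, against 5.07% and 9.86% of all genes. Compound OB was below DMSO in all 3 replicate numbers for 14 of 31 members, against 16.7% of all genes, and above it in all 3 for 3 members, Perp, Plk3 and Trp53, against 23.2%.

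Among the regulators, Trp53 had 163, 126 and 114 FPKM with compound OB, against 163, 93.2 and 101.3 FPKM with DMSO (134 ± 25.3 and 119 ± 38.0, SD, n = 3 each; log2 0.20, SE 0.23, limma adjusted p = 1.00). Mdm2, the ubiquitin ligase of p53 and also its target, had 50.9, 32.9 and 33.5 FPKM with compound OB, against 68.4, 39.6 and 46.7 FPKM with DMSO (39.1 ± 10.2 and 51.6 ± 15, SD, n = 3 each; log2 −0.38, SE 0.25, limma adjusted p = 1.00). The groups overlapped for both genes. Trp53 stood at 1.00, 1.35 and 1.13 of DMSO in replicates 1, 2 and 3. Mdm2 was lower in each replicate number, at 0.743, 0.831 and 0.718 of the DMSO library of the same number. With the block its SE was 0.07 and its limma adjusted p = 0.145. Mdm4 had 19.1, 31.9 and 33.8 FPKM with compound OB, against 22.7, 32.5 and 35.9 FPKM with DMSO (log2 −0.12, SE 0.26), groups that overlapped almost wholly.

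Of the 8 arrest genes 6 had a log2 below 0, and none passed. Cdkn1a averaged 121 ± 91.9 FPKM with compound OB and 160 ± 140 FPKM with DMSO (SD, n = 3 each; log2 −0.31, SE 0.68, limma adjusted p = 1.00), with its SD set by replicate 1 in both groups. Compound OB stood at 0.708, 0.899 and 0.824 of DMSO in replicates 1, 2 and 3, and with the block the SE was 0.08 and the limma adjusted p = 0.237. Without DMSO replicate 1 its log2 was 0.36.

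Ccng1, which encodes cyclin G1, a partner of protein phosphatase 2A that acts on MDM2, had 164, 85.99 and 92.01 FPKM with compound OB, against 209, 117 and 120 FPKM with DMSO. Its ratios within the replicate numbers were 0.786, 0.738 and 0.766, the most even of the genes described in full that were lower. It averaged 114 ± 43.4 and 148 ± 52.2 FPKM (SD, n = 3 each; log2 −0.39, SE 0.32, limma adjusted p = 1.00; with the block SE 0.05, limma adjusted p = 0.0856). Btg2, an antiproliferative cofactor of mRNA deadenylation, had 60.6, 37.6 and 37.1 FPKM with compound OB, against 73.9, 39.4 and 40.1 FPKM with DMSO (log2 −0.15, SE 0.30). Zmat3, an RNA-binding zinc finger protein, had 13.6, 7.13 and 5.79 FPKM with compound OB, against 16.9, 6.90 and 6.37 FPKM with DMSO (log2 −0.12, SE 0.42). In both of these the groups overlapped.

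Plk3, a stress-responsive polo-like kinase, was the one member whose groups did not overlap. It had 2.88, 3.03 and 2.85 FPKM with compound OB, against 2.15, 2.01 and 1.95 FPKM with DMSO (2.92 ± 0.0964 and 2.04 ± 0.103, SD, n = 3 each; log2 0.37, SE 0.11, limma adjusted p = 1.00; unadjusted p = 0.0133). Separate groups with compound OB higher occurred in 5.33% of all genes, and with compound OB lower in 3.4% of genes and in no member. Plk3 was not high in the libraries numbered 1. Gadd45a, described in full like Plk3 after its values were seen, had 332, 166 and 162 FPKM with compound OB, against 329, 146 and 175 FPKM with DMSO (log2 0.03, SE 0.38). Plk2, another polo-like kinase, ranged from 0.75 to 5.52 FPKM and the mitotic spindle protein gene Ckap2 from 19.5 to 22.8 FPKM, with log2 values of −0.25 and −0.05.

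**Figure D3:**
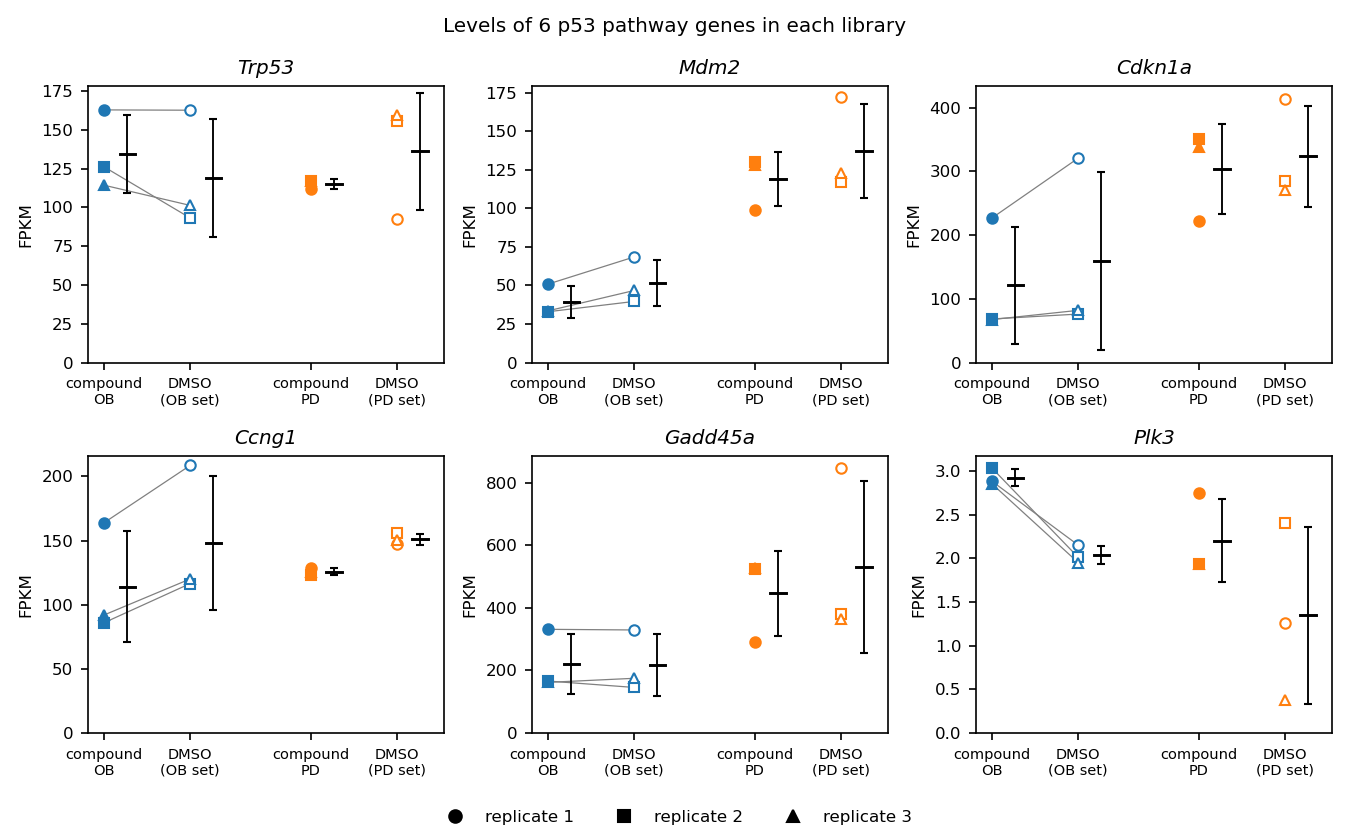
FPKM of 6 genes in each library, with compound groups (filled) left of their DMSO controls (open), marker shape for the replicate number, and bars for the mean ± SD of 3 libraries. Grey lines join libraries of the same number in the OB set, where numbers were taken to pair the libraries. In the OB set Cdkn1a reads 227 and 321 FPKM in the libraries numbered 1 and at most 81.9 in the others, and Plk3 groups do not overlap.

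Of the 11 tested apoptosis genes 7 had a log2 below 0. Trp53inp1, a stress protein that promotes autophagy and death, had 20.2, 11.6 and 11.7 FPKM with compound OB, against 28.4, 15.4 and 14.4 FPKM with DMSO (14.5 ± 4.97 and 19.4 ± 7.83, SD, n = 3 each; log2 −0.38, SE 0.31, limma adjusted p = 1.00; with the block SE 0.07, limma adjusted p = 0.180). Phlda3 averaged 32.9 ± 26.2 and 44.6 ± 38.4 FPKM (SD, n = 3 each; log2 −0.37, SE 0.68, limma adjusted p = 1.00; with the block SE 0.08, limma adjusted p = 0.216), and without DMSO replicate 1 its log2 was 0.27. Tnfrsf10b, the death receptor for TRAIL, had 5.90, 3.97 and 3.61 FPKM with compound OB, against 8.11, 4.84 and 4.74 FPKM with DMSO (log2 −0.32, SE 0.24). These 3 genes were lower within each replicate number while their groups overlapped.

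The BCL2 family members of the list varied in their fitted differences. Bax, which permeabilises the outer mitochondrial membrane, had 399, 257 and 280 FPKM with compound OB, against 449.5, 243 and 284 FPKM with DMSO (log2 −0.04, SE 0.26), and Bbc3, which encodes the BH3-only protein PUMA, had a log2 of 0.11 (SE 0.43). Pmaip1, which encodes the BH3-only protein NOXA, and Eda2r, a receptor of the tumour necrosis factor family, had log2 values of −0.42 and −0.43 at 1.69 to 5.82 and 1.23 to 5.62 FPKM. The nuclease gene Aen, the death domain gene Pidd1, the membrane protein gene Perp and Ei24 of the endoplasmic reticulum lay between −0.07 and 0.24.

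Of the 5 repair genes 4 had a log2 below 0. Polk, a polymerase that copies past damaged bases, had 6.01, 5.17 and 5.89 FPKM with compound OB, against 7.50, 5.97 and 7.23 FPKM with DMSO (5.69 ± 0.454 and 6.90 ± 0.817, SD, n = 3 each; log2 −0.24, SE 0.13, limma adjusted p = 1.00). Ercc5, the XPG nuclease of nucleotide excision repair, had 14.3, 12.0 and 12.4 FPKM with compound OB, against 18.8, 13.3 and 13.5 FPKM with DMSO (log2 −0.21, SE 0.16). Both were lower within each replicate number, with overlap between the groups. Ddb2, which recognises ultraviolet damage, had 4.34, 4.86 and 5.65 FPKM with compound OB, against 4.61, 5.56 and 5.72 FPKM with DMSO (log2 −0.08, SE 0.14), and the damage sensor Xpc and the ribonucleotide reductase subunit Rrm2b had log2 values of 0.13 and −0.01.

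Sesn1, a sestrin that restrains the growth kinase mTORC1, had 16.7, 15.1 and 18.2 FPKM with compound OB, against 16.8, 17.98 and 20.5 FPKM with DMSO (log2 −0.14, SE 0.12). Dcxr, a reductase of dicarbonyls and xylulose, had 32.9, 13.1 and 14.1 FPKM with compound OB, against 55.3, 13.1 and 12.3 FPKM with DMSO (log2 −0.18, SE 0.62), so only the libraries numbered 1 differed between the groups by more than 2 FPKM. Ephx1, the microsomal epoxide hydrolase, had 1.64, 1.08 and 0.63 FPKM with compound OB, against 4.03, 0.91 and 1.56 FPKM with DMSO (log2 −0.49, SE 0.37), and the stress cytokine gene Gdf15 had a log2 of 0.13 (SE 0.55). The groups overlapped for all 4 genes.

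With both libraries numbered 1 left out, an alternative added after their levels were seen, 2 libraries stood against 2. limma then called 17.7% of all genes, 1545 higher and 248 lower. Of the 31 members it called 5 lower, Ccng1 (log2 −0.41, SE 0.10), Mdm2 (−0.36, SE 0.10), Eda2r (−0.38, SE 0.14), Phlda3 (−0.32, SE 0.10) and Trp53inp1 (−0.33, SE 0.11), against 2.45% of all genes. It called 2 members higher, Trp53 (0.30, SE 0.10) and Plk3 (0.40, SE 0.14), against 15.3% of all genes. The limma adjusted p of Ccng1 was 0.00126 in this fit, and over its alternatives it ranged from there to 1.00. The median over the members was −0.07, against 0.06 over all genes. Of the 2 DMSO libraries in this fit, replicate 2 held 15735 FPKM of Rn45s, Rmrp and Rpph1 together, against 638 in replicate 3. The part of that library in these calls was not tested.

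The second comparison asked the same of compound PD. No member passed, and the fitted log2 was below 0 for the 3 regulators, 5 of 8 arrest genes, 8 of 12 apoptosis genes, 1 of 5 repair genes and 3 of 5 metabolic genes, against 40.9% of all genes. Polk, one of the repair genes above 0, was at −0.03 with median-ratio scaling and −0.08 with quantile normalization, and Cdkn1a and Gadd45a were above 0 without DMSO replicate 1 (0.10 and 0.21). All 33 members were tested. limma called 0 of them at an adjusted p under 0.05 (smallest 0.529), against 3 of 11887 genes (0.0252%), of which 1 was higher (0.00841%) and 2 were lower (0.0168%), and none had an unadjusted p under 0.05, against 10.7% of all genes. The fitted log2 was below 0 in 20 of 33 members in all, with a median of −0.09 over the members and 0.06 over all genes. With median-ratio scaling 26 of the 33 were below 0 and with quantile normalization 25. The median over all genes also moved in these fits, from 0.06 to −0.03 and −0.02, and the share of all genes below 0 in them was not counted. The median was 0.03 without DMSO replicate 1 and −0.03 without compound PD replicate 1.

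Markers of other blood cells summed higher with compound PD. The 12 neutrophil precursor markers summed to 29942, 31206 and 37640 FPKM with compound PD, against 11728, 17715 and 16940 FPKM with DMSO. S100a8 and S100a9 made up most of each sum. Mpo had 933, 463 and 422 FPKM with compound PD, against 428, 556 and 560 FPKM with DMSO. Ctsg had 258, 128 and 131 FPKM, against 133, 188 and 165 FPKM with DMSO. These were the only markers of the 12 that were lower with compound PD in replicates 2 and 3. The 9 megakaryocyte markers summed to 7843, 4460 and 4921 FPKM, against 4776, 2450 and 2431 FPKM with DMSO, and no marker of either list was at 0 in all 6 libraries. The part of these cells in the values below was not tested.

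Trp53 had 112, 117 and 117 FPKM with compound PD, against 92.9, 156 and 160 FPKM with DMSO (115 ± 3.20 and 136 ± 37.6, SD, n = 3 each; log2 −0.20, SE 0.21, limma adjusted p = 0.875). Mdm2 had 99.1, 130 and 128 FPKM with compound PD, against 172, 117 and 123 FPKM with DMSO (119 ± 17.3 and 137 ± 30.4, SD, n = 3 each; log2 −0.19, SE 0.19, limma adjusted p = 0.853). DMSO replicate 1 was thus the lowest library for Trp53 and the highest for Mdm2. Mdm4 had 52.2, 53.1 and 49.1 FPKM with compound PD, against 49.1, 63.4 and 69.9 FPKM with DMSO (log2 −0.22, SE 0.17).

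Ccng1 was the one member whose PD groups did not overlap, with 128, 123 and 126 FPKM with compound PD, against 147, 156 and 150 FPKM with DMSO. It averaged 126 ± 2.75 and 151 ± 4.28 FPKM (SD, n = 3 each; log2 −0.26, SE 0.13, limma adjusted p = 0.539). Separate groups with compound PD lower occurred in 3.72% of all genes, and with compound PD higher in 13.1% of genes and in no member. The log2 of Ccng1 stayed between −0.28 and −0.24 when single libraries were left out.

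Of the other arrest genes, Cdkn1a averaged 304 ± 71.3 FPKM with compound PD and 323 ± 78.9 FPKM with DMSO (SD, n = 3 each; log2 −0.09, SE 0.23, limma adjusted p = 0.961). Its log2 was 0.10 without DMSO replicate 1 and 0.12 without compound PD replicate 1. Btg2 had 72.3, 82.8 and 77.2 FPKM with compound PD, against 148, 88.7 and 81.7 FPKM with DMSO (log2 −0.40, SE 0.23, limma adjusted p = 0.619), so that DMSO replicate 1 alone stood well apart. Zmat3 had 8.41, 14.9 and 11.4 FPKM with compound PD, against 15.8, 14.6 and 16.2 FPKM with DMSO (log2 −0.43, SE 0.22, limma adjusted p = 0.556). Gadd45a averaged 447 ± 136 and 531 ± 275 FPKM (SD, n = 3 each; log2 −0.18, SE 0.34), and Plk3 had 2.75, 1.93 and 1.93 FPKM with compound PD, against 1.26, 2.4 and 0.38 FPKM with DMSO (log2 0.53, SE 0.36). Plk2 and Ckap2 had log2 values of 0.03 and 0.05.

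With both libraries numbered 1 left out of the PD set, also added after seeing the data, limma called 2.15% of all genes, 1.75% higher and 0.404% lower. It called 1 of 33 members, Gadd45a, which was higher (log2 0.50, SE 0.07, limma adjusted p = 0.0269; range over its alternatives 0.0269 to 1.00). Its sign was opposite to that over all 6 libraries, and of the other genes described in full Cdkn1a (0.31), Trp53inp1 (0.28) and Mdm2 (0.11) were likewise above 0 without passing. Over all members 17 of 33 were above 0 in this fit, against 13 of 33 with all 6 libraries. The median over all genes was −0.05 in this fit and 0.06 with all 6 libraries, and the share of all genes above 0 in this fit was not counted.

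Of the 12 apoptosis genes 8 had a log2 below 0. Tnfrsf10b had 5.77, 4.4 and 2.89 FPKM with compound PD, against 6.49, 5.68 and 7.23 FPKM with DMSO (4.35 ± 1.44 and 6.47 ± 0.775, SD, n = 3 each; log2 −0.51, SE 0.25, limma adjusted p = 0.538). Phlda3 had 45.4, 57.7 and 56.4 FPKM with compound PD, against 67.2, 57.5 and 71.0 FPKM with DMSO (log2 −0.29, SE 0.17, limma adjusted p = 0.621). In each of these 2 genes a single compound library reached into the DMSO range. Trp53inp1 had 52.8, 78.7 and 75.6 FPKM with compound PD, against 113, 65.7 and 61.1 FPKM with DMSO (log2 −0.17, SE 0.26). Bax had 228, 221 and 224 FPKM with compound PD, against 207, 222 and 214 FPKM with DMSO (log2 0.07, SE 0.13), with overlapping groups. The death receptor gene Fas, tested in this set alone, had a log2 of 0.34 (SE 0.25) at 3.41 to 6.45 FPKM, and the other 7 apoptosis genes lay between −0.21 and 0.32.

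Ercc5 had 10.5, 12.3 and 9.39 FPKM with compound PD, against 15.3, 12.0 and 15.9 FPKM with DMSO (10.7 ± 1.45 and 14.4 ± 2.12, SD, n = 3 each; log2 −0.39, SE 0.19, limma adjusted p = 0.529). Ddb2 had 6.18, 7.75 and 8.39 FPKM with compound PD, against 4.17, 6.09 and 8.14 FPKM with DMSO (log2 0.27, SE 0.26). These were the repair genes with the largest values in each direction, and their groups overlapped. Polk had 8.86, 7.80 and 11.3 FPKM with compound PD, against 10.3, 7.82 and 8.49 FPKM with DMSO (log2 0.06, SE 0.21), and Xpc and Rrm2b had log2 values of 0.24 and 0.03.

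Among the metabolic targets, Ephx1 had 4.60, 7.22 and 4.89 FPKM with compound PD, against 13.6, 7.05 and 6.06 FPKM with DMSO (5.57 ± 1.44 and 8.91 ± 4.10, SD, n = 3 each; log2 −0.54, SE 0.31, limma adjusted p = 0.625). Sesn1 had 16.1, 17.3 and 18.6 FPKM with compound PD, against 29.1, 19.7 and 18.3 FPKM with DMSO (log2 −0.32, SE 0.20, limma adjusted p = 0.684). DMSO replicate 1 was the highest library for both genes. Dcxr had 27.9, 24.8 and 18.6 FPKM with compound PD, against 22.5, 16.4 and 18.1 FPKM with DMSO (log2 0.30, SE 0.21), Gdf15 a log2 of −0.27 (SE 0.35) and Tigar, which lowers glycolytic flux, 0.11 (SE 0.26).

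**Figure D4:**
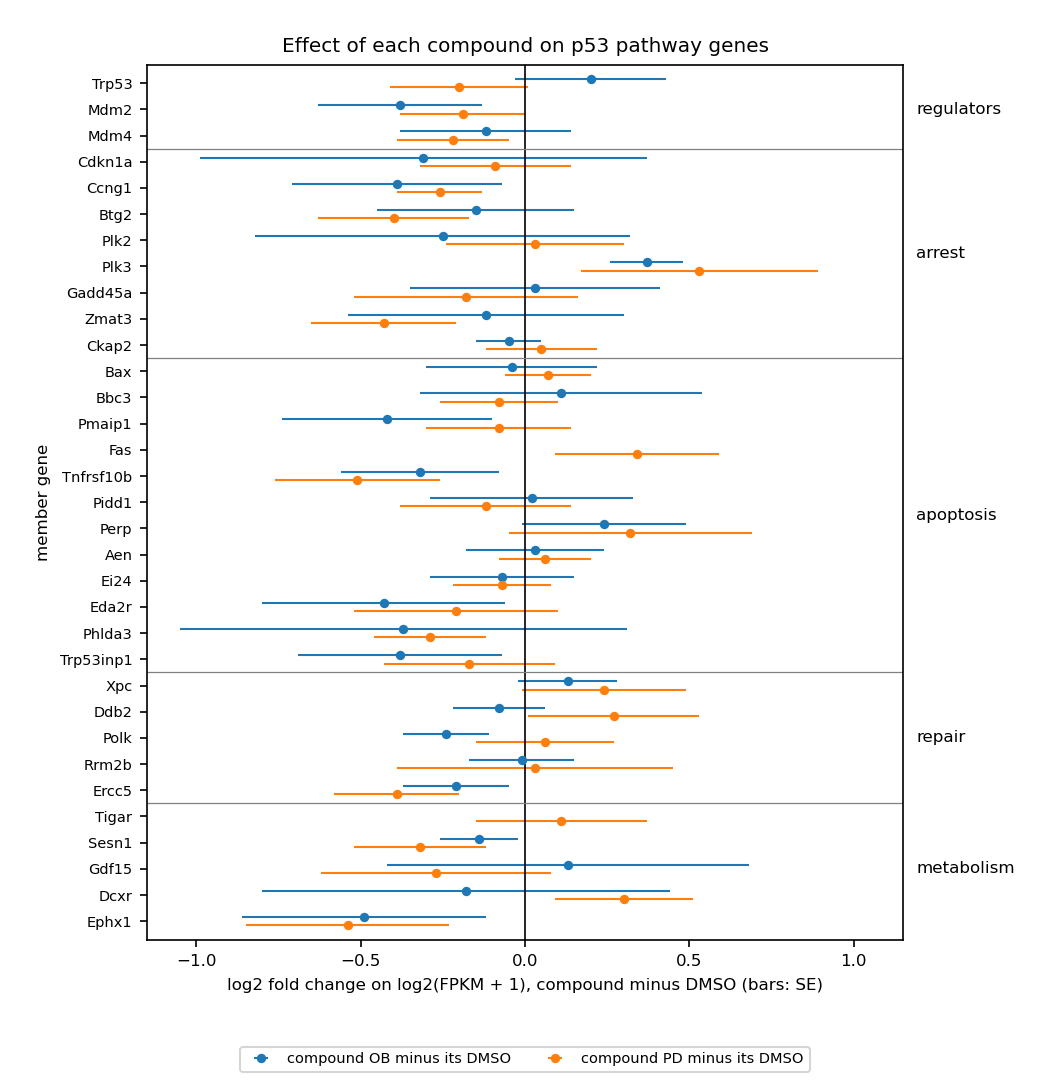
Log2 fold changes on log2(FPKM + 1) of the 33 genes, compound OB (blue) and compound PD (orange) each minus its own DMSO, with bars for the SE and roles at the right. Fas and Tigar were below the filter in the OB set and have no blue point. Most points lie left of 0, at −0.54 to 0.53, and none passed the test in either set.

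All 12 libraries entered a fit that set the effect of compound PD against that of compound OB. Doses, sets and the genes listed differ with the compound, so a difference between compounds cannot be told apart from one between sets. limma called 0 of 33 members at an adjusted p under 0.05 (smallest 0.834) and 0.0% of all 10344 genes. At an unadjusted p under 0.05 there were 0 members, against 7.37% of all genes. The largest value was that of Fas, at 0.67 (SE 0.41) for compound PD minus compound OB, and its mean in the OB set was under the filter of 1 FPKM. Trp53 differed by −0.40 (SE 0.33; log2 −0.20 with compound PD and 0.20 with compound OB), Cdkn1a by 0.21 (SE 0.78) and Ccng1 by 0.12 (SE 0.34). The SE of Cdkn1a exceeded the size of either compound's effect on it.

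Other genes of the pathway were taken as 3 lists. Of upstream kinases, cofactors and relatives of p53, 24 of 27 were tested in the OB set with 18 higher and 6 lower (median log2 0.08), and 23 in the PD set with 3 higher and 20 lower (median −0.10). The shares of all tested genes that were lower were 41.2% for compound OB and 40.9% for compound PD. Further p53 targets had 13 higher and 13 lower of 26 tested in the OB set (median −0.00) and 18 higher and 11 lower of 29 in the PD set (median 0.06). Cell cycle genes that p21 represses through the DREAM complex had 11 higher and 7 lower of 18 in the OB set (median 0.03) and 9 each way in the PD set (median 0.00). limma called 0 genes of the 3 lists in either direction in either set. At an unadjusted p under 0.05 there were 1 in the OB set, of the DREAM list, and 5 in the PD set, namely 4 further targets and 1 of the DREAM list, against 3.68% and 10.7% of all genes.

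Chosen by the smallest p within a list, the acetyltransferase gene Ep300 had 15.6, 19.4 and 14.5 FPKM with compound OB, against 14.7, 13.6 and 13.6 FPKM with DMSO (log2 0.21, limma adjusted p = 1.00). The B-MYB gene Mybl2, from the DREAM list, had 44.1, 46.2 and 40.3 FPKM with compound OB, against 40.8, 32.3 and 34.5 FPKM with DMSO (log2 0.28, limma adjusted p = 1.00). In the PD set the receptor gene Notch1, a further target, had 11.3, 11.7 and 8.16 FPKM with compound PD, against 2.87, 3.51 and 3.33 FPKM with DMSO (log2 1.41, SE 0.22, limma adjusted p = 0.0914). No other gene of the 3 lists had a smaller adjusted p. The groups of Notch1 did not overlap, nor did those of Dram1 and Ccnd1 of the further targets and Foxm1, Cdk1 and Cenpa of the DREAM list. These were the 3 genes with the smallest p of each of those lists, and a choice by p favours separate groups. The whole lists were not counted, so the 13.1% of all genes with compound PD above DMSO in this way is no measure for them. In the OB set E2f1 of the DREAM list, chosen likewise, had 26.55, 25.76 and 25.82 FPKM with compound OB. Its DMSO libraries had 25.04, 20.22 and 20.31 FPKM, also without overlap. Dram1, a lysosomal protein gene of p53-dependent autophagy, had 10.9, 8.88 and 8.06 FPKM with compound PD, against 4.30, 6.13 and 3.74 FPKM with DMSO (log2 0.86, SE 0.23, limma adjusted p = 0.227), and Foxm1, a mitotic transcription factor, 40.2, 38.1 and 36.5 FPKM against 29.2, 25.8 and 33.6 FPKM with DMSO (log2 0.37, limma adjusted p = 0.461).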

How the data were processed

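RNA was measured by sequencing in 12 libraries, 3 in each of 4 groups. The authors deposited FPKM values per gene with 2 decimals, per the file headers. Per the submitters' processing notes, STAR was the aligner and mm10 the build. The program behind the FPKM, the annotation, strand use and RNA selection are not stated in any label or header, so overlapping and antisense genes are uncertain. FPKM carry no counts, so depth is unknown and precision is the SD over 3 libraries.

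In the OB set 381 names split at a hyphen, which hold displaced values, were left out, as were 185 entries of repeated symbols in the PD set and 27 names turned into dates in each. Compound and matching DMSO libraries were compared by limma 3.58.1 (R 4.3.3; trend, robust) on log2(FPKM + 1). Genes averaging under 1 FPKM over the 6 libraries were not tested. Tests were two-sided, with Benjamini-Hochberg adjustment over all genes tested and a threshold of 0.05. The difference between compounds used 12 libraries and 4 group means. The fits were tested on simulated data. Alternatives were a pseudocount of 0.1, no filter, median-ratio scaling, quantile normalization, a replicate block and leaving out libraries.

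Members, lists and roles were chosen with earlier results of these data known. Described in full were Trp53, Mdm2, Mdm4, Cdkn1a, any called member, and the 2 largest changes per role and compound with a mean of at least 5 FPKM. Gadd45a and Plk3 were added after their values were seen. Of the wider lists, up to 3 genes with the smallest p could be named. Replicate numbers were taken to pair the OB libraries, which the labels do not state. Every pair of the same number correlated at 0.434 or more in deviations from the group means over 10103 genes. Each compound library correlated best with its own number. Compound OB replicate 2 also correlated at 0.327 with DMSO replicate 3, and compound OB replicate 3 at 0.413 with DMSO replicate 2. Promoter windows are from RefSeq, GRCm38.p6. Python 3.11.15 with pandas 2.3.3, numpy 2.4.6 and matplotlib 3.10.9 made the tables and plots.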

Additional observations from a re-analysis of the deposited data

How the results depend on the processing

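No member was called for compound OB, for compound PD or for the difference between them under the other pseudocount, no filter, median-ratio scaling, the replicate block or with single libraries left out, nor with quantile normalization for either compound. Quantile normalization and the fit without replicate 1 were not run for the difference. Without replicate 1, added after seeing the data, the fits called 7 members for compound OB and 1 for compound PD. Over all genes the calls for compound OB were 7 with the replicate block, 0 to 14 when single libraries were left out (14 without DMSO OB replicate 1) and 1793 without replicate 1, against 0 as reported. For compound PD they were 41 with the replicate block, 0 with no filter, 0 to 159 when single libraries were left out (159 without DMSO PD replicate 1) and 256 without replicate 1, against 3. Same-numbered PD libraries had correlations of −0.0283 to −0.00509, so the numbers are not taken to pair them. The block changed no call of a member in either set.

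The members' median ranged from −0.28 to 0.14 for compound OB and from −0.15 to 0.03 for compound PD when single libraries were left out; it was −0.19 with median-ratio scaling and 0.03 without replicate 1 for compound PD. Single genes turned sign, and of these Gadd45a alone was called with the turned sign, for compound PD without replicate 1. Gadd45a was −0.01 with median-ratio scaling for compound OB, and Polk −0.03 with median-ratio scaling and −0.08 with quantile normalization for compound PD. Ephx1 was 0.13 for the difference with a pseudocount of 0.1. Without replicate 1, Dcxr was 0.09 for compound OB, and Mdm2 0.11, Polk 0.19 (its sign kept), Cdkn1a 0.31, Trp53inp1 0.28 and Gadd45a 0.50 for compound PD.

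When single libraries were left out, the ranges of genes that turned sign were, for compound OB, −0.31 to 0.13 (Mdm4), −0.88 to 0.36 (Cdkn1a), −0.97 to 0.27 (Phlda3), −0.59 to 0.50 (Dcxr), −0.45 to 0.29 (Zmat3), −0.38 to 0.14 (Btg2) and −0.31 to 0.38 (Gadd45a). For compound PD, with the fits without replicate 1 included for Mdm2, Cdkn1a, Trp53inp1, Polk and Gadd45a, they were −0.30 to 0.11 (Mdm2), −0.21 to 0.31 (Cdkn1a), −0.34 to 0.28 (Trp53inp1), −0.07 to 0.19 (Polk) and −0.40 to 0.50 (Gadd45a). For the difference they were −0.03 to 0.39 (Mdm2), −0.35 to 0.08 (Mdm4), −0.46 to 0.79 (Cdkn1a), −0.15 to 0.42 (Ccng1), −0.09 to 0.48 (Trp53inp1), −0.57 to 0.67 (Phlda3), −0.20 to 0.89 (Dcxr), −0.31 to 0.01 (Sesn1), −0.71 to 0.02 (Zmat3), −0.54 to 0.02 (Btg2), −0.41 to 0.02 (Tnfrsf10b), −0.45 to 0.27 (Ephx1), −0.56 to 0.18 (Gadd45a) and −0.17 to 0.48 (Plk3). The cause of these turns was not tested. Fits with 2 libraries in a group have few residual degrees of freedom, and depth is unknown.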

Other observations

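The levels of some members differed between the DMSO controls of the 2 sets, whose files list different numbers of genes and were not compared by a test. The genes below are examples, and the share of all genes that differed in this way was not counted. Neutrophil precursor markers summed to 146 to 585 FPKM in the DMSO libraries of the OB set and to 11728 to 17715 FPKM in those of the PD set. Mdm2 had 117 to 172 FPKM in the DMSO libraries of the PD set and 39.6 to 68.4 FPKM in those of the OB set. Trp53inp1 had 61.1 to 113 FPKM in the PD set and 14.4 to 28.4 FPKM in the OB set. Bax had 207 to 222 FPKM in the PD set and 243 to 449.5 FPKM in the OB set, ranges that lay near each other without overlap. Trp53 had 92.9 to 160 FPKM in the PD set and 93.2 to 163 FPKM in the OB set, ranges that overlapped almost wholly.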
